A study of Mus musculus with 48 samples.

Results

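The genes described here encode selenoproteins, the proteins that contain selenocysteine, and were followed in mouse kidney at the levels of transcript abundance and translation. They were chosen by name as 10 genes, Gpx1, Gpx3, Gpx4, Txnrd1, Txnrd2, Dio1, Selenop, Selenow, Selenof and Msrb1. Of these, 9 had values among the 12423 genes listed in both assays, and Txnrd2, the mitochondrial thioredoxin reductase, is not analysed here.

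The kidneys came from male C57BL/6JRj mice aged 11 to 12 weeks that had been entrained to 12-h light and 12-h dark phases with food always available. No genotype or drug was compared, and the groups differed only in the time of day, counted as ZT hours from lights on at ZT00, with lights off at ZT12. At each of 12 timepoints, 2 h apart, 2 replicate pools were made from the lysates of 2 mice each, so that each value is a mean over a pair of animals. Each of the 24 pools gave 1 RNA-seq library (total RNA without rRNA) and 1 RPF-seq library, which holds the mRNA fragments that ribosomes protect from nuclease and so measures translation. The authors' values are RPKM on the coding sequence, that is, reads scaled to the coding length and to the size of the library.

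Selenocysteine (Sec) is inserted at a UGA codon, which in other mRNAs ends translation. The ribosome reads it as Sec where the 3′ UTR of the mRNA holds a SECIS stem-loop, which the protein SECISBP2 binds, and where the elongation factor EEFSEC delivers the Sec-carrying tRNA. The kidney is the main source of the plasma glutathione peroxidase encoded by Gpx3 and takes up selenoprotein P from the primary urine through the receptor megalin.

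The UGA codon lies at very different places in the 9 coding sequences, and it is shown here because the values below cover the coding sequence on both sides of it. In GENCODE vM21 (GRCm38) each gene has 1 Sec codon except Selenop, which has 10. The 12 bases before and after the first Sec codon, and for Selenop also the last, read 5′ to 3′ as follows, with that codon in capitals as TGA.
Gpx1: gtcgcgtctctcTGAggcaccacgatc
Gpx3: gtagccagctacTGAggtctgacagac
Gpx4: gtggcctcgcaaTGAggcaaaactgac
Txnrd1: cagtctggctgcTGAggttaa
Dio1: ggcagttgcaccTGAccttcatttctt
Selenop, first: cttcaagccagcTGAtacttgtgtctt
Selenop, last: aggaagtgaaaaTGAcattcaaactaa
Selenow: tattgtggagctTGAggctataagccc
Selenof: gaagtctgcggaTGAaaattggggagg
Msrb1: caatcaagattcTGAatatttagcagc
The Txnrd1 window is shorter, since its stop codon taa follows 1 codon after the Sec codon. The last Selenop window, around codon 377, also ends in the stop codon taa. It holds a further Sec codon, codon 375, in lower case. Counting Txnrd2, the base after the first Sec codon was G in 6 of 10 genes, A in Selenof and Msrb1, C in Dio1 and T in Selenop.

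The Sec codon is early in Selenow (codon 13 of 88; gene at chr7:15917208-15922402, minus strand), in Selenop (codon 59 of 380; chr15:3268547-3280508, plus strand) and in Gpx1 (codon 47 of 201; chr9:108338903-108340343, plus strand). It is in the middle part of Gpx3 (codon 73 of 226; chr11:54902453-54910377, plus strand), Gpx4 (codon 73 of 197 in transcript Gpx4-202; chr10:80047166-80056439, plus strand), Dio1 (codon 126 of 257; chr4:107291465-107307169, minus strand) and Selenof (codon 93 of 162; chr3:144570304-144597680, plus strand). It is late in Msrb1 (codon 95 of 116; chr17:24736642-24742778, plus strand) and is the last codon but 1 in Txnrd1 (codon 498 of 499; chr10:82833951-82897712, plus strand). In 8 of the 9 genes, the length that the RPKM values imply was exactly the annotated coding length past the UGA codon, without the stop codon. For Gpx3 the values imply 774 bases where vM21 has 678, a length 14.2% greater, so its RPKM values are lower than they would be on the annotated length. Each table gives 1 value per gene, so footprints before and after the UGA codon were not separated.

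Reads behind the values differed widely in number. Gpx3 rested on 42535 to 178803 reads per RNA-seq library and 169485 to 407934 per RPF-seq library, whereas Dio1 rested on 105 to 669 and 181 to 531, and Selenow on 123 to 536 and 171 to 406. Counting error alone was 9.76% for Dio1 and 9.02% for Selenow in their lowest RNA-seq library, and it was at most 3.49% for the other members. Relative depth ran from 0.58 to 1.98 in RNA-seq and from 0.70 to 1.58 in RPF-seq around the median library. A pair of RPF-seq libraries stood apart from the rest. That of ZT04 replicate 2 had 162 genes at 0 and a root mean square deviation from the gene means of 0.46 on the log2 scale, and that of ZT16 replicate 2 had one of 0.39, against a median of 0.24. All 12 kidney markers were listed, with summed levels of 6998 to 8497 RPKM in RNA-seq. Of 10 markers of other cell types (liver, fat, adrenal gland, blood, endothelium), 8 were listed, with summed levels of 63.5 to 108 RPKM in RNA-seq and 70.0 to 198 RPKM in RPF-seq.

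The glutathione peroxidases, which reduce hydrogen peroxide and lipid peroxides with glutathione, were, together with Selenop, the most abundant members. Gpx3, the secreted plasma form, had RNA-seq levels from 5214 RPKM at the lowest through a median of 7770 to 9565 RPKM at the highest. Its RPF-seq levels were higher in every pool, from 11511 through 15144 to 19887 RPKM. Gpx3 ranked 11th of 11863 tested genes by mean RNA-seq level and second by mean RPF-seq level, and it held 1.63% of all RPF-seq RPKM in the median library. Gpx1, the main cytosolic form, had RNA-seq levels of 2371, 3190 and 4182 RPKM (lowest, median and highest) and RPF-seq levels of 1662, 2685 and 3346 RPKM. Gpx4, which reduces lipid hydroperoxides in membranes and guards against ferroptosis, had 1208, 1495 and 1886 RPKM in RNA-seq and 716, 1131 and 1519 RPKM in RPF-seq. GENCODE vM21 holds a transcribed Gpx4 pseudogene, Gpx4-ps2, and how its reads were divided is not given in the sources used here.

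Selenop, the plasma protein that carries selenium between organs, was the third member by RNA-seq level. It had 1993, 2467 and 2880 RPKM in RNA-seq and only 941, 1214 and 1485 RPKM in RPF-seq, so that the highest footprint value lay below the lowest transcript value. Liver is its best-known source, and the liver marker Alb had 4.72 to 24.4 RPKM in RNA-seq and 21.3 to 130 RPKM in RPF-seq, and its part in the Selenop values was not tested. In such bulk samples, fewer cells of a type and less RNA per cell cannot be told apart.

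Among the redox enzymes outside the peroxidase family, Msrb1, which reduces oxidised methionine, had 183, 231 and 290 RPKM in RNA-seq and 382, 572 and 1043 RPKM in RPF-seq. Its highest RPF-seq value came from the ZT16 replicate 2 library that stood apart, and the next was 755 RPKM. Txnrd1, the cytosolic reductase that keeps thioredoxin reduced, had 101, 137 and 161 RPKM in RNA-seq and 104, 128 and 148 RPKM in RPF-seq, nearly the same range in both assays. Selenof, a protein of the endoplasmic reticulum that binds the glycoprotein folding sensor UGGT, had 250, 287 and 353 RPKM in RNA-seq and 295, 322 and 368 RPKM in RPF-seq. Selenow, a small protein with a thioredoxin-like fold, had 39.1, 62.7 and 81.4 RPKM in RNA-seq and 28.2, 41.3 and 51.4 RPKM in RPF-seq. Dio1, the deiodinase that converts thyroxine to its active form, was the lowest member, with 12.3, 22.5 and 30.5 RPKM in RNA-seq and 10.1, 18.9 and 32.0 RPKM in RPF-seq. It was still above the median tested gene, whose mean levels were 16.5 RPKM in RNA-seq and 13.7 RPKM in RPF-seq.

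**Figure D1:**
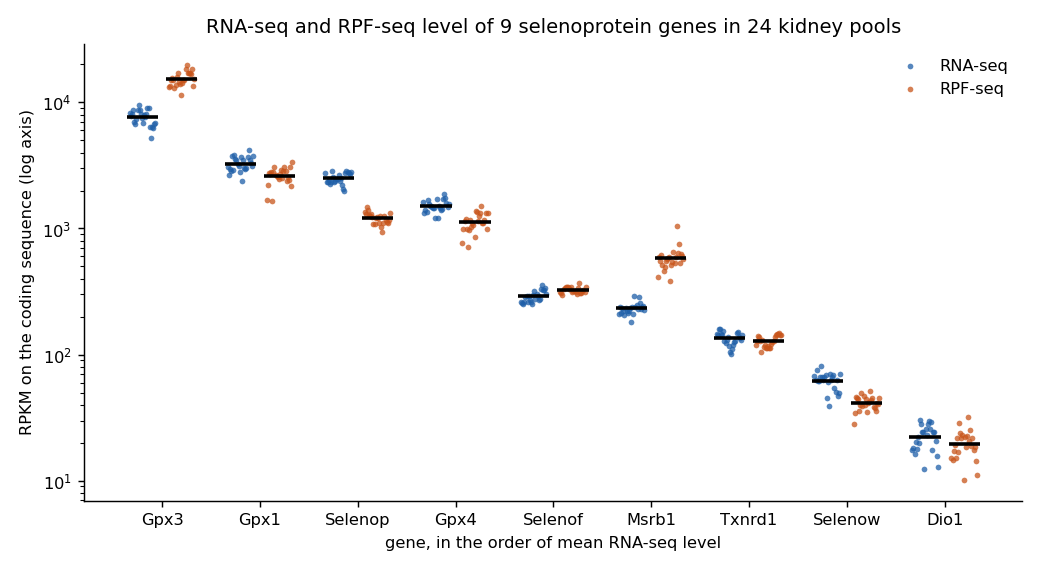
RPKM on the coding sequence (log axis) of the 9 selenoprotein genes in RNA-seq and RPF-seq, 1 point per pool (24 per gene and assay, in time order from left to right) with the mean as a line. Gpx3 and Msrb1 sit higher in RPF-seq than in RNA-seq in all 24 pools, and Selenop sits lower in all 24.

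By mean log2 RNA-seq level the order was Gpx3, Gpx1, Selenop, Gpx4, Selenof, Msrb1, Txnrd1, Selenow and Dio1. All 8 pairs of neighbours differed within pools (two-sided sign-flip permutation test over 24 pools with 100000 resamples, adjusted p = 1e-05 over 8 pairs, the smallest the resamples can give). The narrowest step was that from Selenof to Msrb1, 1.25-fold, with Selenof higher in 24 of 24 pools. The widest was that from Gpx4 to Selenof, 5.21-fold. Since the order was set by the same values, these tests describe how firm it was and are not independent of it.

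In RPF-seq the order was Gpx3, Gpx1, Selenop, Gpx4, Msrb1, Selenof, Txnrd1, Selenow and Dio1, and 7 of 8 pairs differed by the same test. The exception was Selenop and Gpx4. They were 1.66-fold apart in RNA-seq, but in RPF-seq Selenop was higher in only 15 of 24 pools, by a mean log2 difference of 0.12 ± 0.35 (SD; adjusted p = 0.116, permutation test). Msrb1 and Selenof exchanged places between the assays, Msrb1 being 1.76-fold higher in RPF-seq in 24 of 24 pools.

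Translation efficiency (TE) is the log2 ratio of RPF-seq to RNA-seq level in the same pool. Its mean over the 24 pools ran from 1.30 ± 0.23 (SD) for Msrb1 to -1.05 ± 0.17 for Selenop, which is 2.46 footprints against 0.48 footprints per unit of RNA. Msrb1 lay at the 98.4th percentile of the 11863 tested genes and Gpx3, with 1.02 ± 0.28, at the 95.7th, and both had a TE above 0 in 24 of 24 pools. Selenof (0.17 ± 0.18), Txnrd1 (-0.07 ± 0.17) and Dio1 (-0.17 ± 0.14) lay close to the median tested gene, which had a mean log2 TE of -0.07. Gpx1 (-0.33 ± 0.28), Gpx4 (-0.44 ± 0.31) and Selenow (-0.58 ± 0.31) were lower. Selenop lay at the 15.4th percentile and was under 0 in all 24 pools.

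All 8 neighbours in the order of TE differed by the sign-flip permutation test, but the steps in the middle were small. From Txnrd1 to Dio1 the step was 0.11 (adjusted p = 0.0441), from Dio1 to Gpx1 0.15 (adjusted p = 0.0340), from Gpx1 to Gpx4 0.11 (adjusted p = 0.000693) and from Gpx4 to Selenow 0.14 (adjusted p = 0.0438), all on the log2 scale. No alternative kept all 8 pairs. With a pseudocount of 1, 6 of the 8 differed, and the Txnrd1 to Dio1 and Gpx4 to Selenow steps did not pass (adjusted p = 0.0544 for each, same test). Without replicate 1, 5 of the 8 pairs differed, and the Txnrd1 to Dio1, Dio1 to Gpx1 and Gpx4 to Selenow steps did not pass (adjusted p = 0.269, 0.487 and 0.466).

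**Figure D2:**
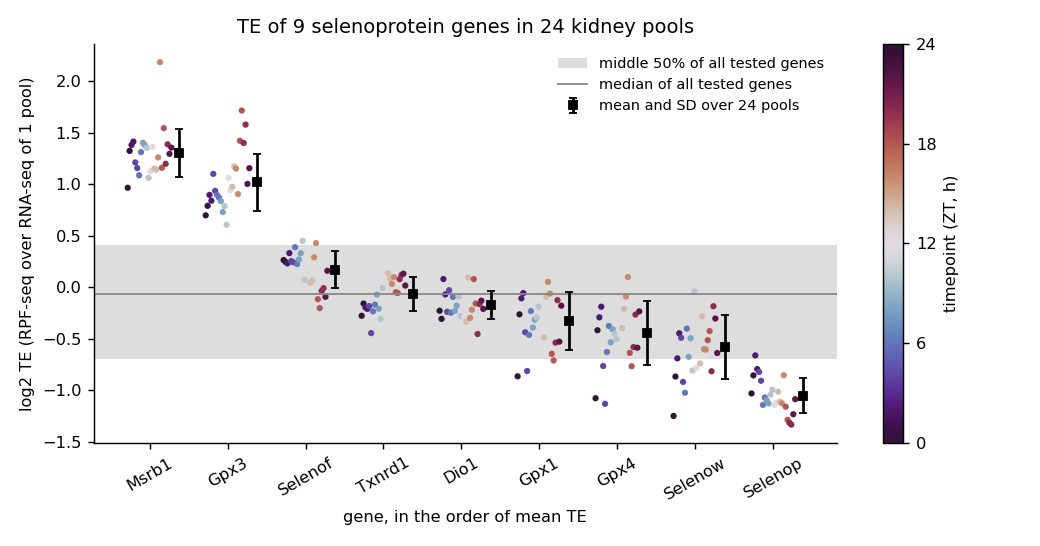
Log2 TE of the 9 genes in each of the 24 pools, coloured by timepoint, with the mean and SD as a square and bar, and the median and middle 50% of all tested genes as a line and band. Msrb1 and Gpx3 lie above the band in every pool, and Selenop lies below it in all but 1.

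Members with a later Sec codon tended to have the higher TE, but Gpx3 and Txnrd1 did not follow this order. Gpx3 had a high TE and a codon in the first 50%. Txnrd1, with the last codon but 1, had a TE at the level of the median tested gene (49.9th percentile). Among the 9 members, Spearman's rho between the position of the first Sec codon, as a percentage of the coding sequence, and mean TE was 0.72 (Pearson's r = 0.52, n = 9 genes). With the 10 other listed selenoproteins included, rho was 0.65 and r 0.65 (n = 19 genes), and among those 10 alone rho was 0.64. Of the 10 genes whose first Sec codon lies in the first 50% of the coding sequence, 9 had a TE under that of the median tested gene (median log2 TE of the 10, -0.42), and the other was Gpx3. Of the 9 with a later codon, 2 were under it (median 0.48), namely Selenoo and, by a very small margin, Txnrd1. This relation was looked at after the values were seen and is given as a description over genes, without a test. The genes share the same 48 libraries, and coding length, abundance and cell type differ between them too.

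**Figure D3:**
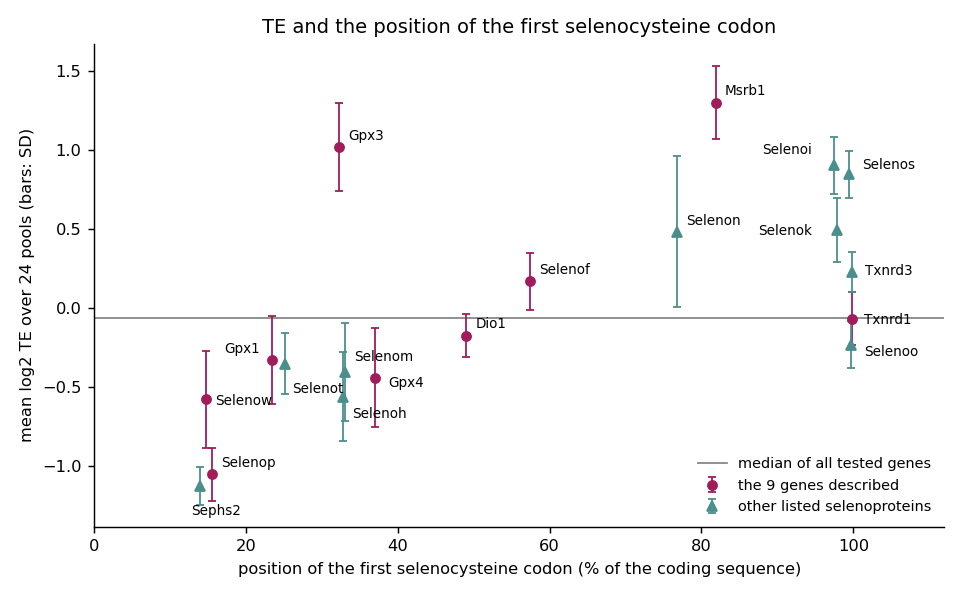
Mean log2 TE over 24 pools (bars, SD) against the position of the first selenocysteine codon in percent of the coding sequence for the 9 genes described (circles) and the 10 other listed selenoproteins (triangles), with the median of all tested genes as a line. Left of the middle every gene but Gpx3 lies under the line, and the lowest are Sephs2, Selenop and Selenow, whose codons lie at 13.9%, 15.5% and 14.8%.

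The other listed selenoproteins were less abundant than the peroxidases, and their TE followed no common level. Sephs2, the selenophosphate synthetase that is itself a selenoprotein, had a mean of 290 RPKM in RNA-seq and 133 RPKM in RPF-seq, and the lowest TE of the 19 (-1.13 ± 0.12, SD). Selenot, of the endoplasmic reticulum, had 250 and 197 RPKM and a TE of -0.35 ± 0.20. Selenok and Selenos, membrane proteins of the degradation machinery of the endoplasmic reticulum, had 115 and 60.2 RPKM in RNA-seq with TEs of 0.49 ± 0.20 and 0.85 ± 0.15. Selenoi, an enzyme of phosphatidylethanolamine synthesis, had the highest TE of this group (0.90 ± 0.18) at only 10.7 RPKM in RNA-seq. Txnrd3, Selenoh, Selenom, Selenon and Selenoo had RNA-seq means of 15.0, 22.2, 40.0, 1.70 and 36.0 RPKM and log2 TEs of 0.23, -0.56, -0.41, 0.48 and -0.23. Gpx2, Dio2, Dio3 and Selenov are not analysed here.

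The genes that make and deliver Sec were listed in 10 of 11 cases, Secisbp2 being not analysed here, and their median log2 TE was -0.29 against -0.07 for all tested genes. Trnau1ap, a partner of the Sec tRNA, had the lowest TE of the list (-1.31 ± 0.19, SD; 37.5 RPKM in RNA-seq), followed by Secisbp2l, the paralog of the SECIS-binding protein (-0.89 ± 0.13; 63.9 RPKM). Eefsec had 24.5 RPKM and a TE of 0.28 ± 0.17. The enzymes that build Sec on its tRNA were of moderate level, with 99.2 RPKM in RNA-seq for Sars, which first charges the tRNA with serine, 15.3 RPKM for Pstk and 31.8 RPKM for Sepsecs. Scly, which frees selenium from Sec, had 74.5 RPKM, Sephs1 36.1 RPKM, Trit1, which modifies tRNA, 9.45 RPKM and Rpl30, a ribosomal protein that can bind SECIS, 535 RPKM.

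The timing of the members was tested with a 24-h cosine curve across all 11863 genes (limma moderated F test, Benjamini-Hochberg FDR), and a gene was called rhythmic at an FDR under 0.05 with a fitted peak-to-trough fold of at least 1.5. None of the 9 members was called at the transcript, footprint or TE level, against 10.2%, 7.58% and 3.74% of all tested genes. The clock genes Arntl, Dbp, Nr1d1, Per2 and Per3 were all called in both assays, with RNA-seq folds of 6.09 to 42.1. By FDR alone, 4 members passed in RNA-seq, while 3 did so in RPF-seq and 2 for TE, where 48.6%, 30.9% and 17.1% of all genes did. At an unadjusted p under 0.05 the numbers were 5, 6 and 4, where 56.3%, 42.6% and 34.0% of all genes passed. The members' median folds of 1.18, 1.22 and 1.23 in RNA-seq, RPF-seq and TE were close to those of all tested genes, 1.20, 1.18 and 1.19. The AIC choice between a flat and a 24-h curve, with the same fold limit, could call none of them. The largest member folds, 1.46, 1.42 and 1.45 in RNA-seq, RPF-seq and TE, were under that limit.

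Txnrd1 had the firmest 24-h component. In RNA-seq its timepoint mean was highest at ZT02 (160 RPKM) and lowest at ZT12 (104 RPKM), and in RPF-seq it was highest at ZT20 (147 RPKM) and lowest at ZT12 (113 RPKM). The 6 RPF-seq libraries of ZT18, ZT20 and ZT22 lay between 143 and 148 RPKM, above all 18 others. The fitted fold was 1.30 in RNA-seq (log2 0.38 ± 0.07, SE, n = 24 libraries; limma, FDR = 0.000409) with a peak at ZT0.60 ± 0.71 h, and 1.26 in RPF-seq (log2 0.33 ± 0.06; FDR = 0.000394) with a peak at ZT20.6 ± 0.66 h. The difference between the fitted peaks, RPF-seq minus RNA-seq, was thus -4.00 ± 0.97 h (SE), the footprint peak being the earlier. Txnrd1 was the only member with a 24-h component at this FDR in both assays. The order of the peaks was the same under every alternative tried, with differences of -4.65 to -3.56 h under those that kept a single 24-h curve, and of -8.40 h for a curve with a 12-h term.

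The TE of Txnrd1 changed over the day, which is the test of a difference between its footprint and transcript rhythms. It ran from -0.44 to -0.01 in the 12 pools of ZT00 to ZT10 and from -0.05 to 0.15 in the 12 pools of ZT12 to ZT22, so that the ranges overlapped only slightly. The fitted TE fold was 1.28 (log2 0.36 ± 0.07, SE, n = 24 pools; limma, FDR = 0.00576) with a peak at ZT16.2 ± 0.75 h. The lowest value came from the ZT04 replicate 2 pool, and without that pool the component was kept. It did not pass without replicate 1 (fold 1.32, FDR = 0.194) or without replicate 2 (fold 1.24, FDR = 0.234).

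Gpx3 was the other member whose TE changed over the day, and its level in RNA-seq and in RPF-seq moved in different ways. Its RNA-seq level was lowest in the 4 libraries of ZT18 and ZT20 (5214 to 6337 RPKM), below all 20 others (6712 to 9565 RPKM). In the same 4 pools its RPF-seq level was between 16735 and 18568 RPKM, in the upper part of its range. These 4 pools had the highest TE values, 1.40 to 1.72, and no other pool was above 1.17. The fitted TE fold was 1.45 (log2 0.54 ± 0.12, SE, n = 24 pools; limma, FDR = 0.0109) with a peak at ZT18.6 ± 0.84 h. The separate fits did not pass the FDR in RNA-seq (fold 1.23, peak at ZT8.03, FDR = 0.0734) or RPF-seq (fold 1.22, peak at ZT17.1, FDR = 0.0557). Without both ZT18 pools the TE fold was 1.33 (FDR = 0.0434), and without the ZT16 replicate 2 pool the RNA-seq fit passed (fold 1.26, FDR = 0.0325). The TE component did not pass without replicate 1 (fold 1.61, FDR = 0.212) or without replicate 2 (fold 1.32, FDR = 0.246). The fold passed 1.5 without the ZT16 replicate 2 pool (1.505, FDR = 0.00759), with a 12-h term in the curve (1.61) and under quantile normalisation (1.52), where Gpx3 was forced to 1 value in all RPF-seq libraries.

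**Figure D4:**
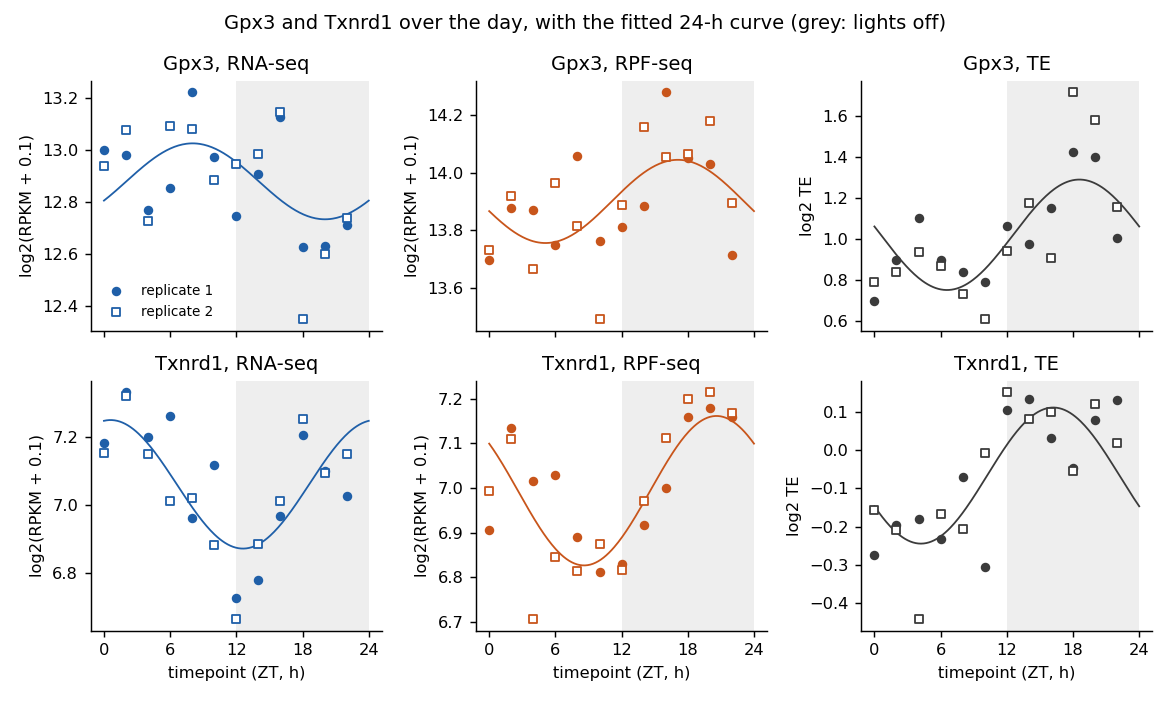
Log2(RPKM + 0.1) in RNA-seq and RPF-seq and log2 TE of Gpx3 (top) and Txnrd1 (bottom) against time of day, with replicate 1 as filled circles, replicate 2 as open squares, the fitted 24-h curve as a line and the dark phase in grey. The 4 Gpx3 pools of ZT18 and ZT20 lie at the bottom in RNA-seq and at the top in TE, and the Txnrd1 curve peaks at ZT20.6 in RPF-seq and at ZT0.60 in RNA-seq.

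Dio1 had the largest fitted fold of the members in both assays and also the largest difference between pools of the same timepoint. Its fold was 1.46 in RNA-seq (log2 0.54 ± 0.17, SE, n = 24 libraries; limma, FDR = 0.0314; peak at ZT12.3 ± 1.20 h) and 1.42 in RPF-seq (log2 0.50 ± 0.19; FDR = 0.109; peak at ZT12.1 ± 1.44 h). The SD between the 2 pools of a timepoint was 0.29 on the log2 scale in RNA-seq and 0.35 in RPF-seq, against medians over all genes of 0.14 and 0.16. At ZT10 replicate 1 had 24.5 RPKM in RNA-seq and 23.0 RPKM in RPF-seq, and replicate 2 had 12.3 and 10.1 RPKM, the lowest values of both assays. At ZT06 replicate 2 was the higher one, with 30.5 and 28.6 RPKM against 19.9 and 16.7 RPKM.

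These differences between Dio1 pools were shared by both assays. Across the 12 timepoints, the difference of replicate 2 minus replicate 1 in RNA-seq followed that in RPF-seq (Pearson's r = 0.92, permutation p = 8e-05, adjusted p = 0.00072 over 9 members; Spearman's rho = 0.84, permutation p = 0.00124, adjusted p = 0.0112), and r was 0.73 without the 2 timepoints farthest from the median. The comparison was added after the data were seen. No other member passed the adjusted permutation test, with r between -0.37 for Selenof and 0.62 for Msrb1. Both assays were made from the same pools, and over all tested genes the median r was 0.26, with Dio1 at the 99.4th percentile. The TE of Dio1 accordingly varied little, with a fitted fold of 1.04 (FDR = 0.862) and an SD over all pools of 0.14. Without replicate 2, Dio1 passed the rhythm rule in both assays (folds 1.65 and 1.56), and without replicate 1 it did not pass (folds 1.29 and 1.29, FDR = 0.655 and 0.788).

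The genes whose RNA-seq pattern was most like that of Dio1 over the 24 libraries were Cyp2d12 (Pearson's r = 0.80; 14.8, 29.1 and 40.5 RPKM), Prkag3 (r = 0.80; 0.71, 1.57 and 2.91 RPKM) and Esr1, the oestrogen receptor alpha (r = 0.78; 5.67, 9.25 and 11.7 RPKM). Of 6 genes of thyroid hormone transport and response, only the receptor gene Thra was called rhythmic, with folds of 1.60 in RNA-seq (peak at ZT3.25) and 1.90 in RPF-seq (peak at ZT2.90). The shares of all tested genes called were 10.2% and 7.58%.

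**Figure D5:**
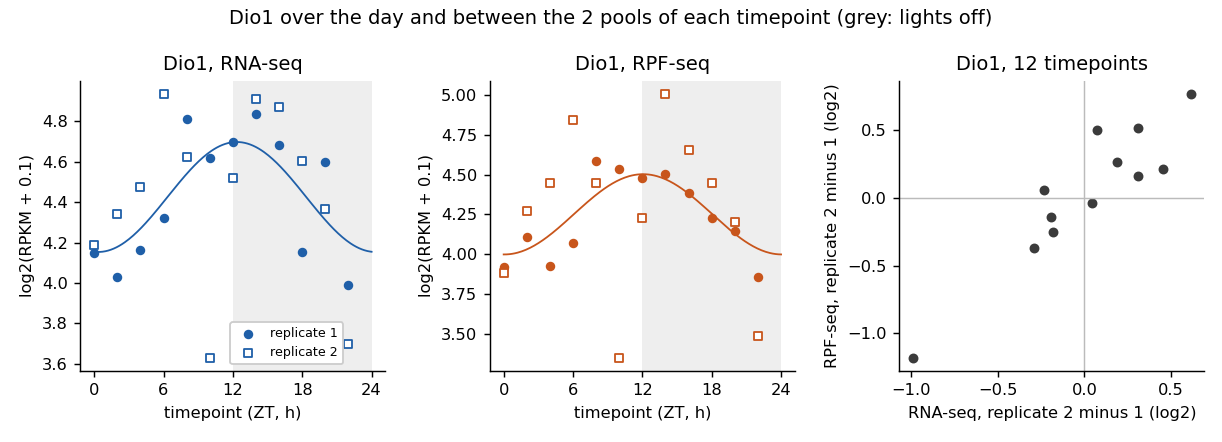
Dio1 as log2(RPKM + 0.1) in RNA-seq and RPF-seq against time of day (symbols, curve and grey as for Gpx3 and Txnrd1), and at the right the difference between the 2 pools of each timepoint in RPF-seq against that in RNA-seq, 1 point per timepoint. The ZT10 pair lies at the lower left, 10 of 12 timepoints have the same sign in both assays, and the replicate 2 values of ZT10 and ZT22 are the lowest of each assay.

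Selenop and Gpx4 passed the FDR in RPF-seq and not in RNA-seq, but for neither did the difference between the assays pass. Selenop had its highest RPF-seq timepoint mean at ZT02 (1442 RPKM) and its lowest at ZT16 (1023 RPKM), with a fitted fold of 1.22 (log2 0.29 ± 0.07, SE, n = 24 libraries; limma, FDR = 0.00733) and a peak at ZT2.29 ± 0.90 h. In RNA-seq its fold was 1.10 (FDR = 0.334), and the TE fold was 1.18 (FDR = 0.146). The RPF-seq component did not pass without replicate 1 (fold 1.23, FDR = 0.141) or without replicate 2 (fold 1.21, FDR = 0.186). Alb, the liver marker, had its RPF-seq peak at ZT15.6 and a TE fold of 3.31 (FDR = 0.00706). Gpx4 had its highest RPF-seq timepoint mean at ZT16 (1420 RPKM) and its lowest at ZT04 (850 RPKM), with a fold of 1.34 (log2 0.42 ± 0.12, FDR = 0.0246) and a peak at ZT15.8 ± 1.08 h. Its RNA-seq fold was 1.12 (FDR = 0.233) and its TE fold 1.32 (FDR = 0.163). The lowest and highest Gpx4 libraries were those that stood apart, and the component did not pass without ZT04 replicate 2 (fold 1.27, FDR = 0.0629) or without ZT16 replicate 2 (fold 1.30, FDR = 0.0556). It also did not pass without replicate 1 (fold 1.42) or without replicate 2 (fold 1.33).

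Selenof and Msrb1 passed the FDR in RNA-seq and not in RPF-seq, but for neither did the difference between the assays pass. The Selenof RNA-seq level was highest at ZT18 (timepoint mean 344 RPKM) and lowest at ZT02 (257 RPKM), with a fold of 1.18 (log2 0.24 ± 0.07, SE, n = 24 libraries; limma, FDR = 0.0199). In RPF-seq Selenof was the steadiest member, with a ratio of highest to lowest library of 1.25, a fitted fold of 1.04 (FDR = 0.639) and an SD between replicates of 0.06, lower than that of all but 1.49% of tested genes. Its TE fold of 1.23 did not pass (FDR = 0.0583), but it did without the ZT16 replicate 2 pool (fold 1.28, FDR = 0.0134). Msrb1 had an RNA-seq fold of 1.17 (FDR = 0.0239; peak at ZT17.6 ± 1.14 h) and an RPF-seq fold of 1.31 (FDR = 0.0730; peak at ZT17.4 ± 1.31 h), and its TE fold was 1.12 (FDR = 0.636). Neither RNA-seq component passed without both ZT18 pools (FDR = 0.122 for Selenof and 0.124 for Msrb1) or under quantile normalisation (FDR = 0.0572 and 0.0932). That of Selenof also did not pass without replicate 1 (fold 1.14) or without replicate 2 (fold 1.22), and that of Msrb1 without replicate 1 (fold 1.18). Gpx1 and Selenow passed in no assay, with RNA-seq folds of 1.04 and 1.18 and RPF-seq folds of 1.17 and 1.12.

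ZT18 in RNA-seq and ZT16 in RPF-seq were the highest timepoints for 5 of the 9 members each, where 9.78% and 15.4% of all tested genes had their highest mean. In RNA-seq these were Gpx1, Gpx4, Selenop, Selenof and Msrb1, while Gpx3 had its lowest mean there. In RPF-seq they were Gpx1, Gpx3, Gpx4, Selenof and Msrb1, while Selenop had its lowest. These counts rest on single libraries. Without ZT18 replicate 1 or 2, ZT18 was the highest RNA-seq timepoint for 4 or 3 members, where 14.9% or 9.19% of all tested genes had theirs. Without ZT16 replicate 2, the library that stood apart, ZT16 was the highest RPF-seq timepoint for 2 members, Gpx1 and Gpx3, where 12.8% of all tested genes had theirs. Without ZT16 replicate 1 it was the highest for 3 members, where 24.2% of all tested genes had theirs.

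The TE values of Gpx1 and Gpx4 also moved together from pool to pool. Across the 12 timepoints, the difference in TE between the 2 pools was related between these genes (Pearson's r = 0.89, permutation p = 0.00024, adjusted p = 0.00864 over 36 pairs of members; r = 0.80 without the 2 farthest timepoints), but by rank it did not pass the adjustment (Spearman's rho = 0.82, permutation p = 0.0018, adjusted p = 0.0648). At ZT00 replicate 1 had a TE of -0.86 for Gpx1 and -1.08 for Gpx4, and replicate 2 had -0.26 and -0.42. At ZT12 the values were -0.44 and -0.32 in replicate 1 and 0.30 and 0.17 in replicate 2. The values of both genes come from the same libraries, and this comparison, too, was added after the data were seen. None of the other 35 pairs passed.

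None of the 10 other listed selenoproteins was called rhythmic in RNA-seq, RPF-seq or TE (limma), against 10.2%, 7.58% and 3.74% of all tested genes. By FDR alone, 8 passed in RNA-seq, 7 in RPF-seq and 0 for TE, where 48.6%, 30.9% and 17.1% of all tested genes did. At an unadjusted limma p under 0.05, 1 passed for TE, where 34.0% of all tested genes did. Their largest folds were 1.46 in RNA-seq for Selenoi (peak at ZT18.6) and Txnrd3 (peak at ZT5.67), followed by 1.44 for Selenoh (peak at ZT10.9), and 1.44 in RPF-seq for Selenoi. Of the 10 listed genes that make and deliver Sec, Trit1 was called, in RPF-seq (fold 1.59, log2 0.67 ± 0.10, SE, n = 24 libraries; limma, FDR = 4.99e-05; peak at ZT8.43). By FDR alone, 5 of these 10 passed for transcripts, 5 for footprints and 2 for TE, against the same 48.6%, 30.9% and 17.1% of all tested genes.

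Among genes that work beside the members, few were called. Of 6 paralogs that carry cysteine in place of Sec or share the substrate, Gpx8 was called in RNA-seq (fold 1.65, FDR = 3.36e-05, peak at ZT20.8), and Gpx7, Msra, Msrb2, Msrb3 and Prdx6 were not. Of 17 thioredoxin and glutathione partners, Txnip, which binds and inhibits thioredoxin, was called in RNA-seq (fold 1.73, peak at ZT4.98) and in RPF-seq (fold 1.74, peak at ZT5.16). Of the listed receptors of selenoprotein P, Lrp2, which encodes megalin, had 997, 1193 and 1496 RPKM in RNA-seq and a fold of 1.20, and Lrp1 had 23.8, 29.0 and 34.4 RPKM and a fold of 1.19, so that neither was called. The kidney markers called included Aqp2, the water channel of the collecting duct, in both assays and Calb1, a calcium-binding protein of the distal tubule, in RNA-seq. Of the 8 listed markers of other cells, Alb, Apoa1 and Adipoq were called in RNA-seq, Alb and Adipoq in RPF-seq, and Alb, Apoa1 and Ptprc in TE. Their part in the members' values was not tested.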

How the data were processed

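RNA-seq and RPF-seq were made from the same 24 kidney lysate pools. Per the labels and the study's methods, the authors trimmed reads with cutadapt, mapped them with Bowtie2 2.2.1 to rRNA, tRNA and cDNA and with TopHat2 2.0.11 to GRCm38.p2, used Cufflinks 2.2.1 for transcript models and counted reads on coding sequences. The authors deposited RPKM values after upper-quantile normalisation with edgeR, so that a change in total mRNA per cell is not visible. The methods say that mice were taken over 2 daily cycles, but not whether a replicate number marks a cycle.

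From these values, log2(RPKM + 0.1) was computed, so fold changes are on that scale. Genes with a median of at least 0.5 RPKM in both assays (11863) entered the rhythm test (R 4.3.3, limma 3.58.1; linear fit and empirical Bayes with trend, moderated F test of 24-h cosine and sine, Benjamini-Hochberg), in RNA-seq, RPF-seq and TE, the within-pool log2 ratio. Standard errors of peaks are from the delta method. The p-values measure the spread between pools. Neighbouring members were compared by sign-flip permutation over 8 pairs, since 9 of the 10 genes had values (9 pairs had been planned). Whole reads and coding lengths were recovered from the steps between RPKM values. For the 94 (RNA-seq) and 264 (RPF-seq) low genes used, 100% of pairs of values fell on whole reads (relative tolerance 1e-07), and of 296 genes with a single coding length the implied length was within 1% of it for 99.0%. The percentages of counting error come from read numbers alone, and PCR copies were not marked. The ± values are SDs over pools or SEs of the fits, as named, and are not counting error. The rhythm test was tested on simulated data. Symbols matched 12373 of 12423 gene IDs, and no 2 libraries were identical. Sequences and coordinates are from GENCODE vM21.

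The members and gene lists were chosen with earlier results of these data known. The text names all members, the other selenoproteins and the genes that make Sec, other listed genes past the rhythm rule, and the 3 genes closest to the member with the largest RNA-seq fold. Genes of the lists that are named as not called were added to complete the counts, and some genes of the lists are not reported here. Other pseudocounts, RPKM limits, normalisation, curves and sample sets were tried as alternatives.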

Additional observations from a re-analysis of the deposited data

Results flagged for a closer look

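The TE of 2 members differed over the day between RPF-seq and RNA-seq by the test of the difference itself (limma moderated F test of the 24-h terms of the within-pool ratio, FDR under 0.05), and both are given here for that reason. The fitted TE fold was 1.28 for Txnrd1 (FDR = 0.00576) and 1.45 for Gpx3 (FDR = 0.0109), where 17.1% of all tested genes passed this FDR. Neither passed without replicate 1 (folds 1.32 and 1.61) or without replicate 2 (folds 1.24 and 1.32). With only 2 pools per timepoint, no test for a single outlying pool was made within a timepoint.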

How the results depend on the processing

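The count of members called rhythmic was 0 in RNA-seq, RPF-seq and TE, and it stayed at 0 under 10, 11 and 10 of 14 alternatives for each, 3 of which were added after seeing the data. Among these, the AIC choice, the replicate block and the other RPKM limits leave the fitted folds as they were, all under 1.5. They could therefore not add a call. The FDR alone, with no fold limit, gave 4, 3 and 2. The curve with a 12-h term gave 1 in each (Dio1, Dio1 and Gpx3), and quantile normalisation gave 1 in RNA-seq and 1 in TE, both Gpx3. Leaving out 1 replicate gave 0 to 1 in RNA-seq and in RPF-seq (1, Dio1, without replicate 2) and 0 in TE. Leaving out the ZT16 replicate 2 pool gave 1 in TE, Gpx3. The cause of these single calls was not tested. The main folds were 1.46 and 1.42 for Dio1 in RNA-seq and RPF-seq and 1.45 for Gpx3 in TE, but 1.23 for Gpx3 in RNA-seq. Pairs of neighbours that differed numbered 8 in RNA-seq and 7 in RPF-seq under every alternative. In TE they numbered 5 to 7 under the alternatives, against 8 in the main test. The Txnrd1 peak difference was -8.40 h with the 12-h term and -3.95 to -3.65 h with 1 replicate left out. No TE value of a member moved by more than its SD, but that of Txnrd1 changed sign, to 0.01, when centred on the median gene.

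The replicate numbers were not treated as pairing the samples, since the labels tie no number to a shared batch or day and not every pair of timepoints correlated. The correlation of replicate differences between timepoints exceeded 0.1 in 13 of 66 pairs of transcript values, 10 of footprint values and 12 of TE values. The highest r was 0.48 for transcript, 0.19 for footprint and 0.34 for TE values. In the same order, 7, 9 and 11 of 12 timepoints were closer to their own number, a hint in TE from the data and not from the design. A replicate block cannot change the fitted folds or peaks, since every timepoint holds both replicate numbers. With all member folds under the fold limit, the calls (0, 0 and 0) and the Txnrd1 peak difference (-4.00 h) had to stay as they were. They therefore do not bear on this choice. The block can change only the FDR, and with it the TE components of Txnrd1 (limma, FDR = 0.00622) and Gpx3 (FDR = 0.0124) still passed.

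By FDR alone, the Txnrd1 component in RNA-seq was kept under 12 of 12 alternatives (highest FDR 0.0396), and that in RPF-seq was lost only without replicate 2 (FDR = 0.0563). Those of TE (Txnrd1 and Gpx3), of Selenop and Gpx4 in RPF-seq and of Selenof in RNA-seq were lost without either replicate. Their folds there were 1.14 to 1.61. Among the 12 alternatives, Gpx4 in RPF-seq was lost under 6. In RNA-seq, Selenof was lost under 4, Msrb1 under 3 and Dio1 under 1. Dio1 and Selenow rest on the fewest reads.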
